A study of Mus musculus with 4 samples.

Results

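Radial glia are the stem cells of the embryonic neocortex, and a small set of genes is used to recognise them. The set described here holds 10 such markers, taken as the genes whose symbol in GENCODE M21 is Sox2, Sox9, Pax6, Sox1, Nes, Vim, Fabp7, Msi1, Slc1a3 or Id3. Of these 10, 8 had at least 1 isoform entry in the deposited table, with 35 entries in all, out of 14949 genes and 46637 entries that named a gene. No entry used here named Sox1 or Msi1. Gene levels are sums over the isoform entries of a gene.

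The cells were primary mouse neural stem cells, given lipid nanoparticles (LNP) for 3 days and sequenced as PCR-amplified cDNA on Nanopore, 1 library per genotype. The control library came from Tut1f/f cells given empty LNP, so its cells carried the floxed alleles but received no Cre mRNA. The other 3 libraries came from cells given LNP with mRNA for Cre recombinase, which cuts out floxed sequence. Their names in the labels are TKO (genotype Tut1f/f), PKO (genotype p53f/f, that is, floxed Trp53) and TPDKO (genotype Tut1f/f;p53f/f). Tut1 encodes the enzyme that adds uridines to the end of U6 snRNA, a spliceosomal RNA, and Trp53 encodes p53. There was no library from cells with unfloxed alleles, none from Trp53-floxed cells without Cre mRNA and no replicate of any genotype. A difference between 2 libraries therefore has no replicate check, and Cre mRNA and the deletion it brings cannot be told apart. Values of the 4 libraries are given below in the order control, TKO, labelled PKO and labelled TPDKO.

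Sox2 and Pax6 are transcription factors that keep cortical progenitors in the stem cell state, and Sox9 is a related factor that promotes their self-renewal and, later, a glial fate. Nes (nestin) and Vim (vimentin) form the intermediate filaments of the long radial fibre. Fabp7 is a fatty acid binding protein of radial glia, Slc1a3 is the glutamate transporter GLAST, and Id3 restrains basic helix-loop-helix factors that drive differentiation. Sox1 is a further SOX factor of early neural cells, and Msi1 (Musashi) is an RNA-binding protein of neural progenitors.

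The libraries held 2863392 to 4244467 reads that named a gene. Reads that named no gene were 17.2%, 30.2%, 28.9% and 27.3% of all reads, lowest in the control. The members took between 1.15% and 1.36% of the reads that named a gene. Tut1 had 37, 11, 14 and 27 reads and Trp53 had 175, 67, 10 and 19. These are sums over each whole gene, while Cre removes only exon 2 of floxed Tut1, so they do not measure the deletion itself. By whole-gene reads, Tut1 was low in the library labelled PKO, whose Tut1 alleles should be intact, and near the control in that labelled TPDKO, so these sums did not follow either label. The coding transcript of Tut1, ENSMUST00000096239, which holds exon 2, had 28, 0, 2 and 6 reads. By that transcript the library labelled TPDKO was below the control, and that labelled PKO was lower still. A retained intron transcript with exon 2 had 3, 3, 5 and 3 reads, and entries named by a read, whose exons are not known, had 6, 8, 7 and 18. Xist had 0, 44, 49 and 0 reads and the Y-linked gene Ddx3y had 85, 0, 0 and 66, so the control and the library labelled TPDKO shared 1 pattern of sex-linked genes and the other 2 shared the opposite one. The ribosomal RNA gene took 18.7% of gene reads in the control against 5.46% to 9.75% in the others. All intervals below describe the error of counting alone, since reads of PCR products that carry no molecular identifier can be copies of 1 molecule. In bulk RNA, fewer cells of a type and less RNA per cell cannot be told apart.

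Sox2 (ENSMUSG00000074637, GRCm38 chr3:34650405-34652461, plus strand) had 843, 1149, 1350 and 797 reads. These were 212, 379, 387 and 270 CPM, that is, reads per 1000000 gene reads after TMM scaling, with 95% Poisson intervals of 198 to 227 in the control, 358 to 402 in TKO, 367 to 409 in the library labelled PKO and 252 to 290 in that labelled TPDKO. The control was the lowest, the library labelled TPDKO stood between it and the other 2, and those 2 could not be separated beyond counting error. Sox2 was a single-exon entry that lies inside the longer non-coding gene Sox2ot, and without stated strand handling the reads of the 2 genes could be exchanged.

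Sox9 (ENSMUSG00000000567, chr11:112782224-112787760, plus strand) had 147, 262, 313 and 199 reads, or 37.0, 86.5, 89.8 and 67.4 CPM. The control interval of 31.2 to 43.4 CPM lay below the other 3, of which the lowest started at 58.4 CPM. The libraries TKO and labelled PKO overlapped each other. Pax6 (ENSMUSG00000027168, chr2:105668900-105697364, plus strand) was the least counted member, with 35, 60, 56 and 49 reads, or 8.80, 19.8, 16.1 and 16.6 CPM. Its control interval of 6.13 to 12.2 CPM lay below that of TKO (15.1 to 25.5) and overlapped that of the library labelled PKO (from 12.1), while that labelled TPDKO started just above it (from 12.3). An antisense gene, Pax6os1, overlaps Pax6.

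Nes (ENSMUSG00000004891, chr3:87971078-87980451, plus strand) was likewise lowest in the control, with 555, 926, 1007 and 588 reads, or 140, 306, 289 and 199 CPM. The intervals were 128 to 152 CPM in the control, 286 to 326 in TKO, 271 to 307 in the library labelled PKO and 183 to 216 in that labelled TPDKO. Only the TKO and PKO-labelled intervals overlapped. Both entries that named Nes were isoforms other than a plain Ensembl transcript: a variant of ENSMUST00000090973 and an isoform named by a read. 

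Vim (ENSMUSG00000026728, chr2:13573927-13582826, plus strand) ran the other way although it belongs to the same filament network. It had 5030, 2296, 2158 and 1836 reads, or 1265, 758, 619 and 622 CPM. The control interval, 1230 to 1300 CPM, lay far above the rest, TKO stood next at 727 to 790 CPM and the libraries labelled PKO and TPDKO could not be separated. Id3 (ENSMUSG00000007872, chr4:136143497-136145755, plus strand) was also highest in the control, with 1699, 655, 802 and 877 reads, or 427, 216, 230 and 297 CPM. Its TPDKO-labelled interval of 278 to 318 CPM stood between the control (407 to 448) and the overlapping intervals of TKO (200 to 233) and the library labelled PKO (215 to 247).

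Fabp7 (ENSMUSG00000019874, chr10:57784881-57788450, plus strand) and Slc1a3 (ENSMUSG00000005360, chr15:8634124-8710764, minus strand) moved least. Fabp7 had 39422, 30043, 32690 and 33582 reads, or 9912, 9919, 9382 and 11382 CPM. The control and TKO could not be separated, the library labelled PKO was slightly lower and that labelled TPDKO was the highest. Slc1a3 had 1149, 984, 1010 and 909 reads, or 289, 325, 290 and 308 CPM. All its intervals lay between 272 and 346 CPM and each overlapped its neighbour.

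**Figure D1:**
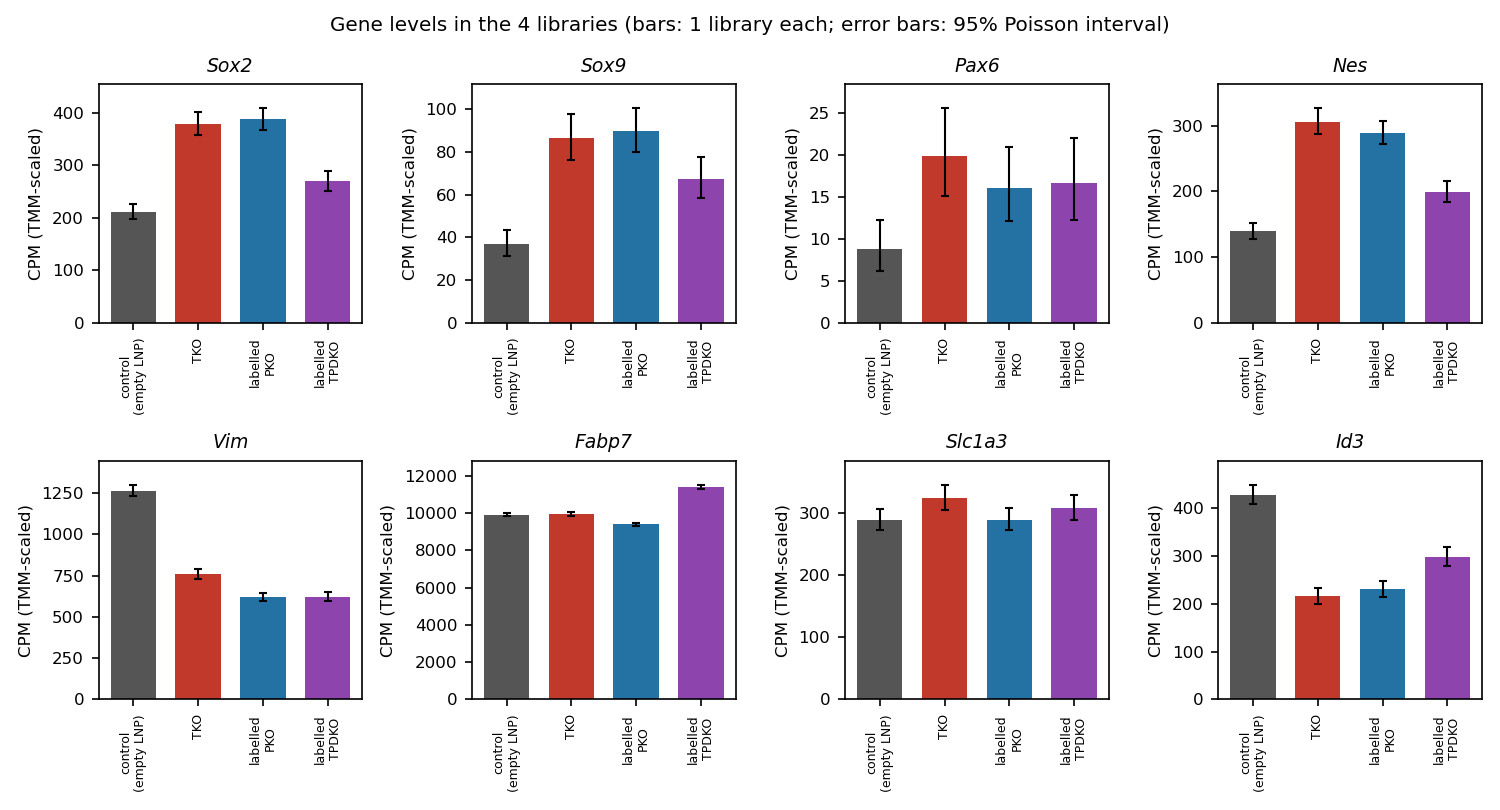
Level of each of the 8 members with entries (y axis, TMM-scaled CPM from 0) in the 4 libraries (x axis), 1 bar per library with its 95% Poisson interval. Sox2, Sox9, Pax6 and Nes are lowest in the control, Vim and Id3 are highest there, and Fabp7 and Slc1a3 differ little.

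Library ratios put these levels on 1 scale. A gene counted as different if its TMM-scaled CPM differed 2-fold or more and the exact 95% interval of the ratio left out no change. TKO against control gave 3 members, all higher, beside 26% of all 9882 genes compared and 12.7% higher: Sox9 at a log2 ratio of 1.23 (interval 0.93 to 1.53), Pax6 at 1.17 (0.55 to 1.82) and Nes at 1.13 (0.98 to 1.29). Id3 was just short of 2-fold at -0.98 (-1.11 to -0.85), Sox2 reached 0.84 (0.71 to 0.97) and Vim -0.74 (-0.81 to -0.67). Slc1a3, whose Poisson intervals overlapped, stood at 0.169 (0.045 to 0.293), an interval that left out no change.

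The library labelled PKO against control also gave 3 members, 2 higher and 1 lower, beside 27.8% of all genes (12.5% higher and 15.3% lower). Sox9 was higher at 1.28 (0.99 to 1.57), Nes was higher at 1.05 (0.90 to 1.20) and Vim was lower at -1.03 (-1.10 to -0.96). Pax6, whose Poisson intervals overlapped, stood at 0.87 (0.23 to 1.52), short of 2-fold with an interval that left out no change. The library labelled TPDKO against control gave 1 member, Vim, at -1.02 (-1.10 to -0.95), beside 20.1% of all genes, 9.76% being lower. In that library 4 members had the direction seen in the other 2 with a smaller ratio: Sox2 at 0.35 (0.21 to 0.49), Nes at 0.51 (0.34 to 0.68), Sox9 at 0.87 (0.55 to 1.19) and Id3 at -0.52 (-0.64 to -0.40). Fabp7 differed in direction, at 0.20 (0.18 to 0.22) in that library and -0.08 (-0.10 to -0.06) in that labelled PKO. At any fold, 7 of 8 members had an interval that left out no change in each of the 3 comparisons, beside 55.3%, 57.5% and 49% of all genes. The 3 comparisons share the control library, so their common directions are not independent.

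**Figure D2:**
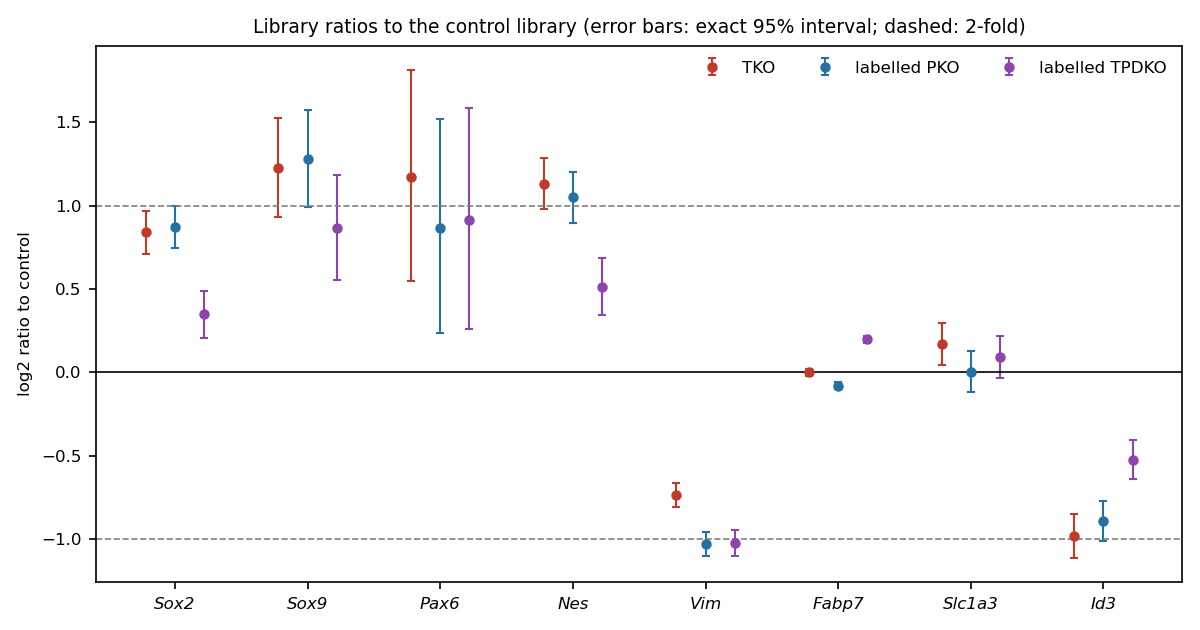
Log2 ratio of each library with Cre mRNA to the control (y axis) for the 8 members (x axis), with exact 95% intervals and dashed lines at 2-fold. Sox9 sits at 1.23, 1.28 and 0.87, Vim at -0.74, -1.03 and -1.02, and the points of the library labelled TPDKO lie nearest to 0 for Sox2, Nes and Id3.

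Among the 3 libraries with Cre mRNA no member differed by 2-fold, beside 3.35% of genes between TKO and the library labelled PKO, 4.49% between the library labelled TPDKO and TKO, and 7.24% between those labelled TPDKO and PKO. TKO and the library labelled PKO were close for Sox2, at a log2 ratio of -0.03 (-0.15 to 0.08), Sox9 at -0.05 (-0.30 to 0.19) and Nes at 0.08 (-0.05 to 0.21). The library labelled TPDKO was lower than that labelled PKO in Sox2 at -0.52 (-0.65 to -0.39), Nes at -0.54 (-0.69 to -0.39) and Sox9 at -0.41 (-0.68 to -0.15). It was higher in Id3 at 0.37 (0.23 to 0.51) and Fabp7 at 0.28 (0.26 to 0.30). At any fold, 5 of 8 members had an interval excluding no change in that comparison, beside 33% of all genes. The numbers were 6 of 8 beside 24.7% between the library labelled TPDKO and TKO, and 3 of 8 beside 18.7% between TKO and the library labelled PKO. The 2 libraries that agreed most also shared the pattern of Xist and Ddx3y reads, and the part of sex in these differences was not tested.

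The 3 libraries with Cre mRNA were then tested against the control with edgeR's quasi-likelihood test over 10596 genes. The lone control library was assumed to vary as the other 3 did, and the spread of those 3 includes their differences in genotype. Sox9 was the 1 member that combined an FDR (Benjamini-Hochberg) below 0.05 with a 2-fold change or more, beside 17.1% of all genes, and it rose 2.21-fold (log2 1.14, SE 0.29, FDR = 0.0136). Nes rose 1.91-fold (log2 0.93, SE 0.27, FDR = 0.0281 by edgeR). Vim fell 1.89-fold (log2 -0.92, SE 0.18, FDR = 0.00455 by edgeR) and Id3 1.72-fold (log2 -0.78, SE 0.22, FDR = 0.0209 by edgeR). These 4 of 8 members passed the FDR at any fold, beside 20.9% of all genes (9.42% higher and 11.5% lower).

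The other 4 members did not pass that test. Sox2 stood at log2 0.71 (SE 0.25, edgeR FDR = 0.0598) and Pax6 at 0.99 (SE 0.35, edgeR FDR = 0.0605), each higher in 3 of 3 libraries with Cre mRNA. Fabp7 stood at 0.05 (SE 0.14, edgeR FDR = 0.833) and Slc1a3 at 0.10 (SE 0.20, edgeR FDR = 0.777). DESeq2 gave Sox9, Nes, Vim and Id3 FDRs of 0.0111, 0.0266, 0.00483 and 0.0367, and put Sox2 and Pax6 at 0.0918 and 0.224. Without the library labelled PKO no gene passed (0 of 10328 genes called by edgeR, with 2947 at an unadjusted p under 0.05), and Sox9 then stood at log2 1.07 (edgeR FDR = 0.107). Without TKO, Nes (edgeR FDR = 0.101) and Id3 (edgeR FDR = 0.121) no longer passed, while Sox9 (log2 1.10, edgeR FDR = 0.0454) and Vim (log2 -1.02, edgeR FDR = 0.00298) did, and without the library labelled TPDKO, Sox2 (edgeR FDR = 4.97e-05) and Pax6 (edgeR FDR = 0.0104) also passed. With library total scaling Id3 did not pass (edgeR FDR = 0.0611), and Sox2 (edgeR FDR = 0.0383) and Pax6 (edgeR FDR = 0.0401) did. With reads that named only a position added, as described below, Nes did not pass and stood at log2 0.10, or 0.48 with total scaling.

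The separate effects of Tut1 and Trp53 status were fitted in an additive model over the 4 libraries, which left 1 residual degree of freedom. It had no term for Cre mRNA, which only the control lacked. No member was called for Tut1 status, beside 0% of 9882 genes (0 genes by edgeR and 0 by DESeq2, with 171 and 70 at an unadjusted p under 0.05). The member estimates for Tut1 status ran from log2 -0.38 (SE 0.40) for Vim to 0.59 (SE 0.63) for Pax6. No member was called for Trp53 status, beside 0.0101% of genes, which was 1 gene. Vim had the estimate farthest from 0 at log2 -0.65 (SE 0.40), and the rest lay between -0.21 for Id3 and 0.46 for Sox9. Both contrasts rest on the 2 libraries whose whole-gene Tut1 reads did not follow their labels. With 3 libraries the 2 terms leave no residual degree of freedom, so neither estimate could be tested with a library left out. Tut1 status alone, fitted without the control, gave log2 -0.29 for Sox2, -0.25 for Sox9, -0.23 for Nes, 0.12 for Vim and 0.12 for Id3. These had the opposite direction to the estimates over 4 libraries, while Pax6, Fabp7 and Slc1a3 kept theirs.

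Promoters were read for 8 of the 10 members, and Sox9 and Msi1 had no sequence in the RefSeq promoter table used. Those of Sox2 and Nes, 2 members that stood higher in every library with Cre mRNA, are shown as the 250 bases before the RefSeq start on GRCm38.p6. That start is not the gene start given above. The Sox2 window ends before the GENCODE span of the gene, and the Nes window ends inside it. Capitals mark the SOX core motif ACAAT or its reverse complement ATTGT, and the E-box CANNTG bound by the basic helix-loop-helix factors that Id proteins restrain.
Sox2, chr3:34649745-34649994, plus strand: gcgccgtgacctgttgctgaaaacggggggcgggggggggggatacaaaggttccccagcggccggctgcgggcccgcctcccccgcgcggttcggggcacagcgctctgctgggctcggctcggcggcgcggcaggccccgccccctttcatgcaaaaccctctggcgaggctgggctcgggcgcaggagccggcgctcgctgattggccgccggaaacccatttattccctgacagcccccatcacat
Nes, chr3:87970843-87971092, plus strand: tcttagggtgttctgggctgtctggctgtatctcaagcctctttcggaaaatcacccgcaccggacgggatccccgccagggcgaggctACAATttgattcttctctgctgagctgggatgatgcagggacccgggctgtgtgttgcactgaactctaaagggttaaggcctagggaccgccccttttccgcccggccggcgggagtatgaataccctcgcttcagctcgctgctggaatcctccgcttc
The Nes window held 1 SOX core and no E-box, and the Sox2 window held neither. Over all 32851 promoters of this length, 27.7% held a SOX core and 66.2% an E-box. Neither motif was found in the windows of Vim, Id3 or Sox1, while Fabp7 held 2 E-boxes and 1 SOX core, Slc1a3 held 1 of each, and Pax6 had 1 SOX core in one promoter and 1 E-box in the other. A match is a run of letters and not a binding site. The Sox2 window was 72% G or C, against a median of 52.4% over all promoters, and the Nes window 58.8%.

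The isoforms of Slc1a3 differed in share between the control and the 3 libraries with Cre mRNA. The full-length coding transcript (ENSMUST00000005493, 10 exons) had 1048, 753, 796 and 676 reads, or 91.2%, 76.5%, 78.8% and 74.4% of the reads of the gene. A retained intron transcript that ends in intron 3 (ENSMUST00000129325) had 22, 124, 134 and 129 reads, or 1.91%, 12.6%, 13.3% and 14.2%. A second one, which ends in intron 2 (ENSMUST00000133309), had 8, 64, 50 and 50 reads, or 0.696%, 6.50%, 4.95% and 5.50%. The control stood apart in all 3, and the libraries with Cre mRNA had overlapping Wilson 95% intervals for each retained intron transcript.

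Both transcripts follow the full-length one from its first exons and then read on past a splice donor. The intron 3 transcript has 3 exons, and its last exon runs 390 bases into intron 3 (37234 bases long) and ends at position 8687898. The intron 2 transcript has 2 exons, and its last exon runs 952 bases into intron 2 (20136 bases long) and ends at position 8707610. The sequences below show the last 50 bases of the exon in lower case, followed in capitals by 50 bases of intron for the retained transcripts, or by the first 50 bases of the next exon for the full-length one. They were taken from GENCODE M21 transcripts (GRCm38, minus strand), and all exon bases shown are coding.
Slc1a3 intron 3 transcript, end of exon 3 and start of intron 3, chr15:8688238-8688337: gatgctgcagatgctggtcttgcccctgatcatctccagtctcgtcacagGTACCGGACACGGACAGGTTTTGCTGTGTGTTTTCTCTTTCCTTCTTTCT
Slc1a3 full-length transcript, exon 3 (chr15:8688288-8688337) joined to exon 4 (chr15:8651004-8651053): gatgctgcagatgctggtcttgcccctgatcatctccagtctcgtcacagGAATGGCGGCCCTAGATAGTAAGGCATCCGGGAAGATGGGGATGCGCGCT
Slc1a3 intron 2 transcript, end of exon 2 and start of intron 2, chr15:8708512-8708611: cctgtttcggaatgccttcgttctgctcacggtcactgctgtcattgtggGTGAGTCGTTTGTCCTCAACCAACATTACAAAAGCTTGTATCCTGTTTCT
Slc1a3 full-length transcript, exon 2 (chr15:8708562-8708611) joined to exon 3 (chr15:8688376-8688425): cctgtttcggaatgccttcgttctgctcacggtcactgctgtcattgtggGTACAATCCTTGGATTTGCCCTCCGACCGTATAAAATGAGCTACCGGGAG
Each intron opens with GT, the usual donor. Read in the frame of the full-length transcript, which has 543 codons, the intron 3 transcript meets a TGA stop after 200 codons, 281 bases into the intron, and the intron 2 transcript a TAA stop after 147 codons, 260 bases into it. The last 60 bases of both transcripts held neither AATAAA nor ATTAAA, the usual signals for polyadenylation, on the transcript strand. At least 1 of these was found in 23.1% of 21848 retained intron transcripts and 51% of 58781 coding transcripts.

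The share of the intron 3 transcript was higher than in the control by 10.7 percentage points in TKO (Newcombe 95% interval 8.53 to 13.0), 11.4 in the library labelled PKO (9.17 to 13.7) and 12.3 in that labelled TPDKO (9.95 to 14.8). The share of the full-length transcript differed from the control by -14.7 points in TKO (-17.8 to -11.6), -12.4 in the library labelled PKO (-15.4 to -9.40) and -16.8 in that labelled TPDKO (-20.1 to -13.6). The intron 2 transcript was higher by 5.81, 4.25 and 4.80 points. Counting an isoform as different at 10 points or more, TKO had 2 member isoforms (both of Slc1a3), the library labelled PKO 3 (these and the full-length Vim transcript) and that labelled TPDKO 2 (of Slc1a3), beside 12.8%, 13.3% and 11% of all isoforms compared. Between the libraries labelled TPDKO and PKO, the intron 3 transcript differed by 0.92 points (-2.15 to 4.03), an interval that includes no change.

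Across all genes, retained intron transcripts took 1.19%, 2.06%, 1.95% and 2.03% of the reads assigned to plain Ensembl transcripts. Against the control, 27.4%, 25.6% and 23.8% of them were higher by 5 points or more with an interval excluding 0, and 3.87%, 3.96% and 4.09% were lower. The 3 main retained intron transcripts of Slc1a3 and a small one together held 51, 208, 200 and 195 reads, or 4.44%, 21.1%, 19.8% and 21.5% of the gene. TKO and the library labelled PKO, in which the label gives no floxed Tut1, differed in the share of the intron 3 transcript by -0.67 points (-3.62 to 2.29). The third retained intron transcript, ENSMUST00000125997, had 21, 18, 15 and 15 reads and showed no such pattern. Vim had the only other retained intron entry among the members, ENSMUST00000155605, with 3, 0, 0 and 0 reads.

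**Figure D3:**
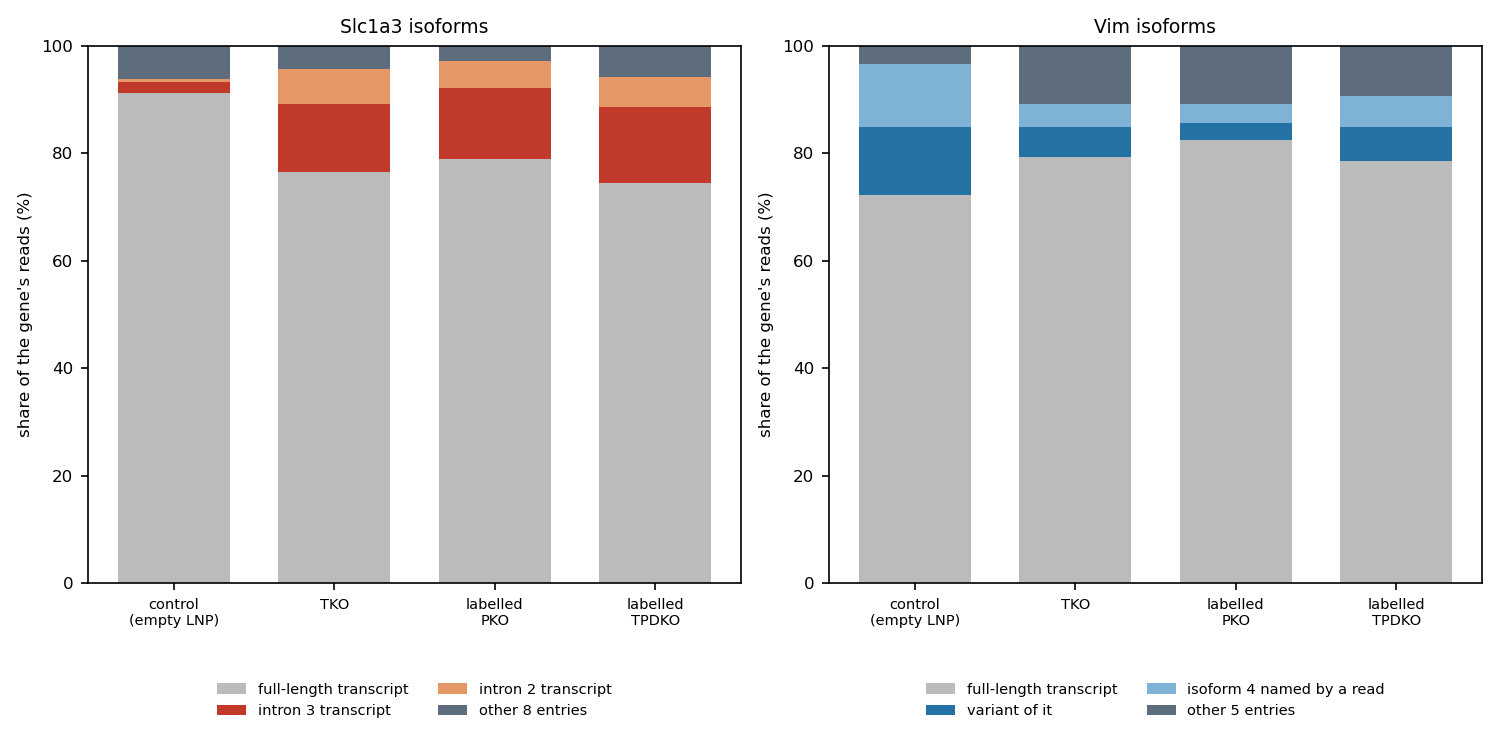
Share of the reads of Slc1a3 (left) and Vim (right) taken by each isoform entry (y axis, percent) in the 4 libraries (x axis). The 2 retained intron transcripts of Slc1a3 grow from 1.91% and 0.696% in the control to between 12.6% and 14.2% and between 4.95% and 6.50%, while 2 Vim entries shrink from 12.6% and 11.7%.

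Vim was spread over 8 entries. The full-length transcript (ENSMUST00000028062, 9 exons) had 3633, 1820, 1777 and 1442 reads, or 72.2%, 79.3%, 82.3% and 78.5% of the gene. Its variant had 634, 128, 72 and 117 reads, or 12.6%, 5.57%, 3.34% and 6.37%, and an isoform named by a read had 588, 97, 75 and 103, or 11.7%, 4.22%, 3.48% and 5.61%. Each of these 2 entries had a smaller share in every library with Cre mRNA, and on plain Ensembl transcripts alone the log2 ratios of Vim to the control were -0.54, -0.75 and -0.87, against -0.74, -1.03 and -1.02 over all its entries.

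Pax6 had 2 entries of note. ENSMUST00000090397 had 27, 39, 41 and 41 reads, and ENSMUST00000111082 had 7, 20, 11 and 8. The share of the second in the library labelled TPDKO differed from that in TKO by -17.0 points (-31.8 to -0.45) and that of the first by 18.7 (1.97 to 33.5). These were the 2 member isoforms counted as different between those libraries, beside 3.61% of all isoforms, and neither was with genes of at least 50 reads in each library. Sox2 and Sox9 had 1 entry each, ENSMUST00000099151 and a variant of ENSMUST00000000579. The variant of ENSMUST00000090973 held 66.3%, 64.7%, 67.0% and 62.4% of Nes reads. Fabp7 was 95.8% to 96.6% plain ENSMUST00000020024, and Id3 was 73.1% to 78.2% plain ENSMUST00000008016 and 20.4% to 25.2% a variant of it. A Pax6 isoform named by a read had 1, 1, 3 and 0 reads.

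A further part of the reads named no gene, only a position in steps of 1000 bases, and some of these positions lay inside the members. Nes had more of them than named reads, with 1471, 1754, 1956 and 1012, which were 72.6%, 65.4%, 66.0% and 63.3% of the sum. Sox9 had 260, 615, 821 and 539, or 63.9% to 73.0% of its sum, and Slc1a3 had 814, 892, 949 and 776, or 41.5% to 48.4%. Pax6 had 18 to 42 reads of this kind, Fabp7 1292 to 2998, Vim 71 to 100, Id3 47 to 67 and Sox2 none in any library.

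For Sox1 and Msi1 these positions are all that the table holds. Positions inside Sox1 (ENSMUSG00000096014, chr8:12395295-12400126, plus strand) had 7, 7, 11 and 7 reads, and those inside Msi1 (ENSMUSG00000054256, chr5:115429599-115455698, plus strand) had 90, 68, 88 and 33. The Msi1 span gave 17.6, 16.0, 18.2 and 8.38 reads per 1000000 table reads, so the library labelled TPDKO had the least. The strand of these reads was not stated, and both spans overlap other genes, Sox1ot and Gm25239 in the first and 4930430O22Rik in the second.

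Calls for the members changed with these reads. When they were added to every gene, with TMM scaling over all table reads, the edgeR estimate for the 3 libraries with Cre mRNA against the control was log2 0.10 for Nes (FDR = 0.788) and 1.03 for Sox9 (FDR = 0.00496). Vim stood at log2 -1.36 (edgeR FDR = 0.000257) and Id3 at -1.20 (edgeR FDR = 0.00145). Scaled by the total of table reads instead, Nes was at 0.48 (edgeR FDR = 0.168), Sox9 at 1.40 (edgeR FDR = 0.000697) and Pax6 at 0.89 (edgeR FDR = 0.0276). The addition also changed the scaling of every gene, with the TMM factor of the control at 0.810 in place of 0.937. Sox2, which has none of these reads, went from log2 0.71 to 0.23 (edgeR FDR = 0.485) with TMM scaling and to 0.61 (edgeR FDR = 0.0664) with the total, and Fabp7 to -0.45 (edgeR FDR = 0.0574) and -0.07 (edgeR FDR = 0.757). This addition was chosen after the data had been seen.

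**Figure D4:**
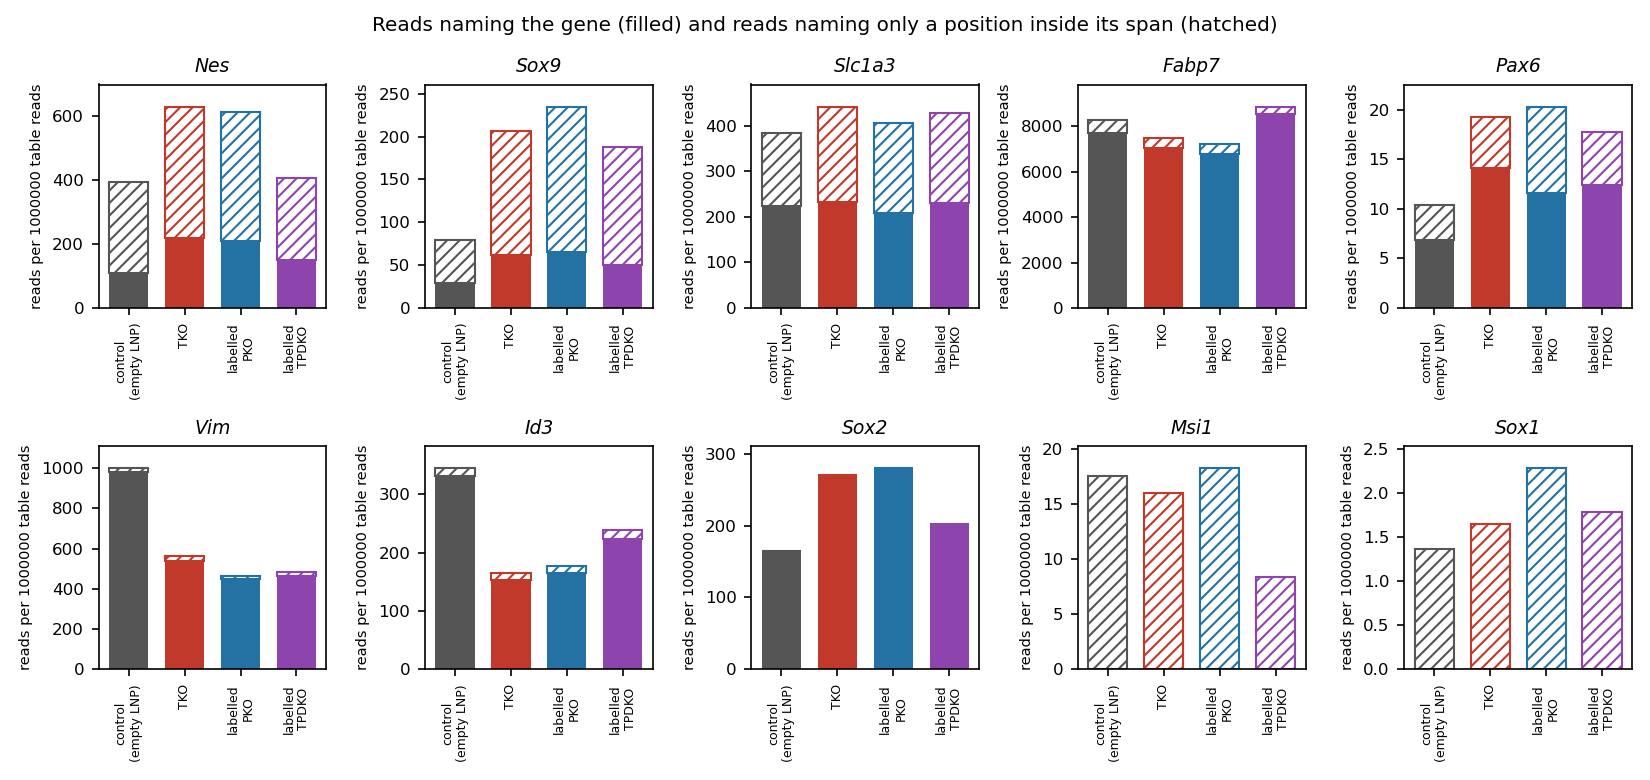
Reads that name each member (filled) and reads that name only a position inside its span (hatched), per 1000000 reads of the table (y axis), in the 4 libraries (x axis). Nes and Sox9 are mostly hatched, with 63.3% to 72.6% and 63.9% to 73.0% of the sum, and Sox1 and Msi1 entirely so.

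The members differ in transcript length, and the ratio to the control differed between length classes over all genes, without a steady rise. In TKO against control, genes with a transcript under 1000 bases had a median log2 ratio of 0.27, those of 1000 to 2000 bases -0.33 and those of 4000 bases or more 0.24. In the library labelled PKO these medians were 0.28, -0.34 and 0.23, and in that labelled TPDKO 0.27, -0.18 and 0.14. The higher members Nes (6126 bases) and Sox9 (4135 bases) belong to the longest class, and the lower member Id3 (1278 bases) to that of 1000 to 2000 bases, where its TKO ratio of -0.98 lay below the lower quartile of -0.82. Pax6 (3069 bases), at 1.17, lay above the upper quartile of its class, 0.50. Fabp7 (804 bases) belongs to the shortest, and its TKO ratio of 0.00102 lay between the quartiles of that class (-0.18 and 0.74). Sox2 (2057 bases) and Vim (2193 bases) share a class with a median of -0.24 in TKO, and their TKO ratios of 0.84 and -0.74 lay on opposite sides of it. Vim lay between the quartiles of that class (-0.86 and 0.39) and Sox2 above the upper one. Slc1a3 (4163 bases), at 0.17, stayed near the median of its class. Nes at 1.13 and Sox9 at 1.23 lay above the upper quartile of theirs, 0.74. The part of length in the members' ratios was not tested.

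The other genes of the stem cell state were taken from a list of 40, of which 31 had entries and were tested. Between the 3 libraries with Cre mRNA and the control, edgeR called 5 higher and 3 lower (25.8% of the 31), beside the 17.1% of all genes given above, and 23 were not called. Their median log2 change was 0.31, against 0.41 for the 8 members and 0.01 for all genes. Hes1, the Notch target that holds progenitors undifferentiated, had 594, 1513, 1586 and 1334 reads and rose by log2 1.66 (SE 0.22, edgeR FDR = 0.000462). Nfib, a nuclear factor of the later glial programme, had 86, 184, 217 and 190 reads and rose by log2 1.53 (SE 0.28, edgeR FDR = 0.00282). The SOX factor Sox6 had 42, 103, 104 and 78 reads (log2 1.51, SE 0.34, edgeR FDR = 0.00773) and the homeobox gene Emx2 had 33, 54, 79 and 54 (log2 1.25, SE 0.36, edgeR FDR = 0.0258), and both rose.

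Zbtb20, a zinc finger factor, had 0 reads in the control and 18, 11 and 16 in the others. Set against a floor of 3 reads in the control, its scaled reads were 7.88-fold in TKO, 4.19-fold in the library labelled PKO and 7.19-fold in that labelled TPDKO. These folds leave out the counting error of the 18, 11 and 16 reads, so they are not lower bounds. The 3 lower genes were Sox8, with 93, 10, 13 and 19 reads (log2 -2.38, SE 0.38, edgeR FDR = 0.00131), the surface protein gene Cd24a, with 299, 73, 65 and 74 (log2 -1.73, SE 0.26, edgeR FDR = 0.000944), and the factor Rfx4, with 273, 41, 57 and 108 (log2 -1.64, SE 0.38, edgeR FDR = 0.00945). Hes1, Emx2, Zbtb20, Nfib and Sox6 were also higher by the 2-fold rule in each of the 3 libraries, and Cd24a and Sox8 lower in each. For Tut1 and Trp53 status, none of the 31 was called (0 by edgeR).

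**Figure D5:**
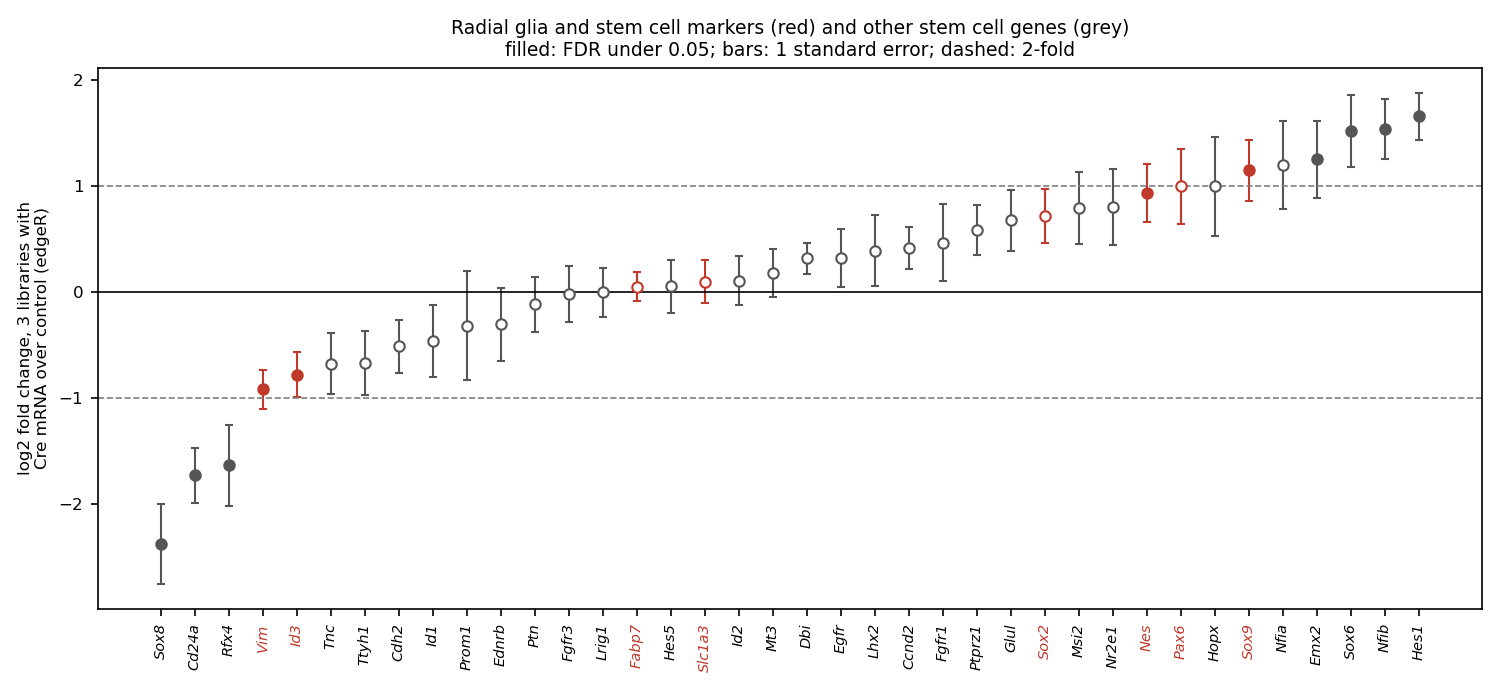
Log2 fold change of the 3 libraries with Cre mRNA over the control from edgeR (y axis, bars of 1 SE) for 8 members (red) and 30 other stem cell genes (grey) in order of size, filled where the FDR was under 0.05. Members spread from Vim at -0.92 to Sox9 at 1.14, and Sox8 at -2.38 and Hes1 at 1.66 stand at the ends. Zbtb20, with 0 reads in the control, is left out.

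The labelled cell type was checked against markers of other cells. Of 5 endothelial markers, 0 had an entry. Of 7 microglia and macrophage markers, 1 did (P2ry12, 1 to 3 reads), and of 7 mesenchymal markers 2 did, with a summed level of 2.01 to 5.42 CPM. Of 5 intermediate progenitor markers, Btg2 was the one with an entry, and Eomes, Neurog1, Neurog2 and Insm1 had none. Of 12 neuron markers 8 had reads, at a summed 492, 344, 342 and 323 CPM, largely from Gap43, with Dcx at 2 to 6 reads. Of 7 astrocyte markers 6 had reads, at a summed 448, 292, 263 and 377 CPM, with no entry for Gfap. All 7 oligodendrocyte lineage markers had reads, at a summed 385, 642, 732 and 525 CPM, and this sum was largest in the libraries where Sox2, Sox9 and Nes were highest. Most of it was Olig2 (998, 1391, 1953 and 1073 reads), which many cultured neural stem cells express. Those tested were 5 neuron, 5 astrocyte, 5 oligodendrocyte lineage, 1 intermediate progenitor and 1 mesenchymal marker. Of these, 4 passed the FDR at any fold between the 3 libraries with Cre mRNA and the control, beside 20.9% of all genes. Olig2 (log2 0.89, edgeR FDR = 0.0268) and Cspg4 (log2 0.85, edgeR FDR = 0.0435) rose, and Gap43 (log2 -0.68, edgeR FDR = 0.0315) and the astrocyte marker Aldh1l1 (log2 -2.15, edgeR FDR = 0.0204) fell. Aldh1l1 had 187, 16, 11 and 71 reads, and the astrocyte markers S100b and Slc1a2 stood at log2 0.99 (edgeR FDR = 0.278) and 0.14 (edgeR FDR = 0.867). The neuron markers Syt1 and Snap25 stood at 0.76 (edgeR FDR = 0.360) and 0.59 (edgeR FDR = 0.387), and the oligodendrocyte lineage marker Pdgfra at -0.12 (edgeR FDR = 0.798). The part of other cell types in the members' levels was not tested.

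Over the 4 libraries, the genes closest in pattern to a member were found by the root mean square difference of centred log2 CPM, among 5585 genes with a mean of at least 50 reads. For Sox2 they were Msi2 (0.027) and Gm11808 (0.032), the first a relative of Msi1. For Sox9 they were Ythdc1 (0.020) and Rab6a (0.027). Those closest to Pax6 were Mia2 (0.029) and Rev3l (0.034), to Vim Klhdc4 (0.049) and Nt5c3b (0.055), and to Id3 Stau1 (0.033) and Naxd (0.036). Rpl6 (0.017) and Gnl2 (0.020) were closest to Fabp7, and Hif1an (0.0089) and Mtmr10 (0.012) to Slc1a3. Among the members, Sox2 and Nes differed by 0.10, Sox9 and Nes by 0.13, Fabp7 and Slc1a3 by 0.10 and Vim and Id3 by 0.27, against 0.72 to 0.90 between Sox2, Sox9, Pax6 or Nes on one side and Vim or Id3 on the other. With 4 libraries, such closeness is a description of these libraries.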

How the data were processed

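The authors deposited raw read counts of Nanopore isoforms in 1 table, with 1 column for each library and no normalization. The build was mm10 per the submitters' processing notes. The study's methods name minimap2 and FLAIR for long reads of embryonic tissue, and whether they also made this table was not stated. Of 255164 entries, 208527 named only a position and stayed out of library sizes and tests. Members were matched by gene identifier in GENCODE M21 (GRCm38), and counts were summed per gene. Gene counts were tested with edgeR 4.0.16 (quasi-likelihood, TMM, filterByExpr) in R 4.3.3, with DESeq2 1.42.0 as an alternative, and a call needed an FDR (Benjamini-Hochberg) below 0.05 and a change of 2-fold or more. Single libraries were compared by exact 95% intervals of the ratio of TMM-scaled CPM, and isoform shares by Wilson and Newcombe intervals, for isoforms with at least 10 reads in genes with at least 20. Samples were grouped by their labels. All 10 members were named, with list genes called in an edgeR fit or different in all 3 libraries, the 2 genes closest in pattern to each member (those of Nes are not reported here), isoforms with at least 5% of a member's reads, and Tut1, Trp53 and Xist; Ddx3y, Btg2, P2ry12, Gap43, Dcx, Olig2, Cspg4, S100b, Slc1a2, Syt1, Snap25, Pdgfra and the Slc1a3 and Vim entries under 5% were named after their values were seen. The members and lists were chosen with earlier results of these data known. The tests and interval rules were run on simulated counts. For the interval rules these were Poisson and binomial counts without PCR copies, so they do not show how the intervals cover these libraries. Promoters are from RefSeq (GRCm38.p6). Python 3.11.15, numpy 2.4.6, scipy 1.17.1, pandas 2.3.3 and matplotlib 3.10.9 were used.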

Additional observations from a re-analysis of the deposited data

Results flagged for a closer look

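Tut1 status was compared once without and once with floxed Trp53. In 4 members the 2 comparisons went in opposite directions, each with an interval excluding no change. At any fold, 55.3% of all genes had such an interval in the first comparison and 33% in the second. The share of all genes that went in opposite directions was not counted. The log2 ratio of TKO to control was 0.84 for Sox2, 1.23 for Sox9, 1.13 for Nes and -0.98 for Id3. That of the library labelled TPDKO to the library labelled PKO was -0.52 for Sox2, -0.41 for Sox9, -0.54 for Nes and 0.37 for Id3. The first pair differs in Cre mRNA as well as in Tut1, while both libraries of the second pair had Cre mRNA. Each pair also differs in Xist and Ddx3y reads, in opposite directions. Xist had 44 reads in TKO and 0 in the control, but 0 in the library labelled TPDKO and 49 in that labelled PKO. Ddx3y had 0 and 85 reads in the first pair and 66 and 0 in the second. The part of sex in the opposite directions was not tested. The direction of the second pair rests on its labels, and with these labels exchanged its 4 ratios would have the direction of the first pair. In the libraries labelled PKO and TPDKO, whole-gene Tut1 reads were 14 and 27 against 37 in the control, reads of the coding Tut1 transcript, which holds exon 2, were 2 and 6 against 28, and Trp53 reads were 10 and 19 against 175. With 1 library each, the difference between the comparisons was not tested. Reads that named only a position inside Msi1, a gene with no named entry, numbered 90 in the control, 68 in TKO, 88 in the library labelled PKO and 33 in that labelled TPDKO, above the 3 reads that a count of 0 allows. Single libraries per genotype left no group in which a sample could be set apart from its replicates.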

How the results depend on the processing

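No paired analysis was possible because each genotype had 1 library and the labels gave no replicate numbers. Member counts that are not mentioned stayed within 1.5 times the reported count under every alternative run. For the 3 libraries with Cre mRNA against the control, 1808 genes were called, against 974 by DESeq2, 1168 on plain Ensembl transcripts, 880 with a mean of 50 reads, 3264 with position entries added and 3876 with these scaled by the library total. Members called went from 1 to 3 with library total scaling and 3 with position entries, and were 0 on plain transcripts, where Sox9 and Nes had no reads and 6 members were tested. Leaving out 1 library with Cre mRNA gave 0 to 2505 genes, 0 to 3 members called and 0 to 6 members at any fold, lowest without the library labelled PKO and highest without that labelled TPDKO. For Tut1 status, 1 gene was called with position entries and 0 to 23 with 1 library left out, highest without the control. For Trp53 status, 2 genes were called without a filter, 2 with a mean of 50 reads and 0 on plain transcripts, and leaving out 1 library gave 0 genes without the library labelled TPDKO to 1474 without TKO, with 0 to 2 members called and 0 to 2 at any fold. The fits for Tut1 or Trp53 status on 3 libraries held 1 term alone, so they change the model as well as the samples. Without the library labelled PKO, Tut1 status and Cre mRNA were the same term, as were Trp53 status and Cre mRNA without TKO.

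Without the 2-fold requirement, 7 of 8 members differed from the control in each library with Cre mRNA (beside 55.3%, 57.5% and 49% of genes), 5 between those labelled TPDKO and PKO, 6 between that labelled TPDKO and TKO and 3 between TKO and that labelled PKO. On plain transcripts, 1, 0 and 0 of the 6 members with such reads were 2-fold different from the control. Against the control, the library labelled TPDKO had 2 such members with library total scaling, 2 with position entries and 3 with both, and against that labelled PKO 1 with position entries and 1 with both. At 20 points no member isoform differed (0 in each comparison), and with 50 reads per gene 0 differed between the library labelled TPDKO and TKO.

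Library total scaling moved the median log2 ratio of all genes to the control from -0.0070, -0.019 and -0.014 to 0.12, 0.10 and 0.12. Of 48 member ratios, 5 whose interval excluded no change turned direction under an alternative. Fabp7 in the library labelled PKO turned from -0.08 to 0.036 with library total scaling and 0.025 on plain transcripts. With position entries, Slc1a3 in TKO turned to -0.22, and in the library labelled TPDKO Sox2 turned to -0.11, Nes to -0.36 and Fabp7 to -0.31. A further 7 ratios, whose intervals included no change, turned in 13 combinations with an alternative, among them Fabp7 in TKO (-0.56) and Slc1a3 in the libraries labelled PKO (-0.31) and TPDKO (-0.24) with position entries. The cause was not tested. Depth limited Pax6, with 35 to 60 reads per library, and single libraries limit every ratio.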
